A study of Arabidopsis thaliana with 28 samples.

Results

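The interaction of the bam7 and bam8 mutations was measured in shoots of Arabidopsis thaliana on 8 of the 28 arrays of the series, chosen by their genotype labels. Of 22746 probe sets tested, 11 (0.0484%) departed from additivity by the interaction test, and these are the members described. BAM7 and BAM8 are nuclear proteins that join a DNA-binding domain of the BZR1 type to a domain resembling the starch-degrading enzyme beta-amylase. They are known as transcription factors with a part in shoot growth and in brassinosteroid-related gene expression. Additivity depends on the scale, and the log2 scale was chosen here. On it, losing both factors is taken to change a transcript level by the product of the single changes, a sum of log2 differences. A departure from that sum, the interaction, means that lines with and without the bam7 mutation differed by another amount where bam8 was also mutated. Whether the loss of the factors or another difference between the lines gave rise to it was not tested.

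The 8 arrays were 2 each of the double mutant bam7 bam8, the single mutant bam7, the single mutant bam8 and wild type. All plants were of accession Col-0 and untreated, and their shoots were taken at an age of 3 weeks, 4 h into a light period of 12 h. Each array held RNA from a pool of 14 plants, so that p-values measure the spread between such pools. The labels do not describe the mutant alleles. The other 20 arrays came from 10 overexpression groups (labels ending in Ox), which entered the shared estimate of the spread. Levels are array intensities on a linear scale, here called units, and differences are on the log2 scale. The interaction was computed as (bam7 bam8 minus bam8) minus (bam7 minus wild type), so a positive value means that bam7 bam8 lay above the sum of the single differences. The tables used here do not pair the probe sets of the array with genes. Members are therefore named by probe set ID, at most 2 per direction, no gene function is given for them, and neither the levels of BAM7 and BAM8 nor markers of the shoot could be read as a check of the labels.

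Array medians in the 4 genotypes lay between 24 and 25.4 units. The 25th percentile, a measure of the low end of an array, was lowest in bam7 replicate 1 (6.83 units) and highest in wild type replicate 1 (8.2 units). Both replicates of a genotype were more than 2-fold apart at 9 probe sets in bam7 bam8, 51 in bam7, 6 in bam8 and 50 in wild type.

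Few probe sets were called for the interaction, which does not show how many transcripts were non-additive. The 11 members had an interaction at a limma adjusted p under 0.05. Of these, 5 were positive (0.022%) and 6 negative (0.0264%), a split that became 8 and 4 with cyclic loess normalization. At an unadjusted p under 0.05 there were 1855, with 922 positive and 933 negative. Over all probe sets the median interaction was 0.0528, and the 10th and 90th percentiles were -0.308 and 0.328, with a median SE of 0.196. The SE of a probe set limits how small a departure could be seen there. The smallest called interaction measured 0.756, at an SE of 0.125, below the median SE. The interaction was 1 or more in size (2-fold) at 75 probe sets, 36 positive and 39 negative, of which 8 were called. The last called probe set had an adjusted p of 0.0348 and an interaction of 1.11 (SE 0.19). The first beyond the threshold had an adjusted p of 0.0528 and an interaction of 1.18 (SE 0.212). These calls use a spread estimated from all 14 groups. A limma fit of the 8 arrays alone called 0 probe sets, with 1822 at an unadjusted p under 0.05. Single arrays also moved the count. The number called was 3 without bam7 bam8 replicate 2, 4 without bam7 bam8 replicate 1, bam7 replicate 2 or bam8 replicate 2, 5 without wild type replicate 1 and 73 without wild type replicate 2. The count was 10 without bam7 replicate 1 and 8 without bam8 replicate 1.

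**Figure D1:**
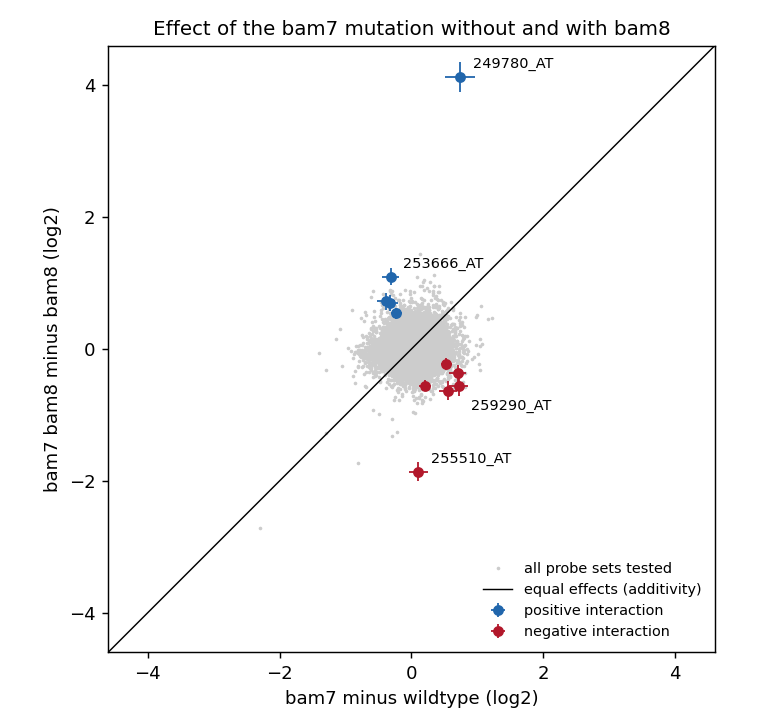
Log2 difference of bam7 bam8 minus bam8 (vertical axis) against bam7 minus wild type (horizontal axis). Both axes set lines with the bam7 mutation against lines without it, on the vertical axis with bam8 also mutated. Points are probe sets, coloured ones are the 11 called for the interaction with SE bars, and the line marks equal effects. Probe set 249780_AT lies 3.39 above the line and 255510_AT lies below it, with an interaction of -1.97.

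Probe set 255510_AT was the member whose level was low in the double mutant alone. It measured 13.8 and 17.2 units in bam7 bam8, 57.9 and 66.6 units in bam7, 57.4 and 54.5 units in bam8, and 69.6 and 47.9 units in wild type. Both bam7 bam8 arrays thus lay far below the other 6 arrays, among which those of bam7 and bam8 fell between the 2 wild type arrays. Adding the single differences gave 60.2 units for bam7 bam8, and the mean found there was 15.4 units (geometric mean, n = 2). The interaction of 255510_AT was -1.97 (SE 0.2, 95% interval -2.39 to -1.54, limma adjusted p 0.000161). Against each of the other genotypes the double mutant was lower, by -2.01 relative to bam7 (adjusted p 9.59e-07), by -1.86 relative to bam8 (adjusted p 1.13e-06) and by -1.91 relative to wild type (adjusted p 7.64e-07), in the same limma fit. For the single mutants no difference from wild type was detected, at 0.11 in bam7 (95% interval -0.19 to 0.40, adjusted p 0.728) and -0.05 in bam8 (95% interval -0.34 to 0.25, adjusted p 0.948). The bam7 bam8 values were above the 25th percentile of their arrays (7.5 and 7.29 units). Whether this low level stood above background was not tested, since detection calls were not used. The call held in each of the 8 fits that leave out 1 array, with values from -2.24 to -1.70.

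Probe set 249780_AT showed the reverse arrangement, with 1 single mutant low and the double mutant not. Its level was 107.1 and 71.6 units in bam7 bam8, 83.02 and 81.2 units in bam7, 5.17 and 4.85 units in bam8, and 54.9 and 44.1 units in wild type. The bam8 arrays stood alone at the low end, and the bam7 bam8 arrays overlapped those of bam7 and lay above both wild type arrays. The sum of the single differences gave 8.36 units for bam7 bam8, against a measured mean of 87.6 units. The interaction was 3.39 (SE 0.315, 95% interval 2.73 to 4.05, limma adjusted p 8.02e-05). Between bam7 bam8 and bam8 the difference was 4.13 (adjusted p 9.82e-09), and between bam7 bam8 and bam7 it was 0.09 (95% interval -0.38 to 0.56, adjusted p 0.992). Neither bam7 (0.74, adjusted p 0.217) nor bam7 bam8 (0.83, adjusted p 0.213) passed the threshold against wild type. In bam8 the level fell by 3.30 relative to wild type (adjusted p 4.93e-07). Both bam8 values were below the 10th percentile of their arrays (5.24 and 5.31 units), at the bottom of the measured range, so the sizes that rest on them, the additive level included, are not exact. With values under the 25th percentile of an array raised to that percentile, 249780_AT had an interaction of 2.81 (adjusted p 7.43e-06). On those values bam7 bam8 differed from bam8 by 3.55 (adjusted p 5.8e-10) and bam8 from wild type by -2.72 (adjusted p 4.85e-08). There bam7 bam8 against wild type, at 0.83, did pass (adjusted p 0.0341). Leaving out single arrays gave 3.10 to 3.68, called each time.

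**Figure D2:**
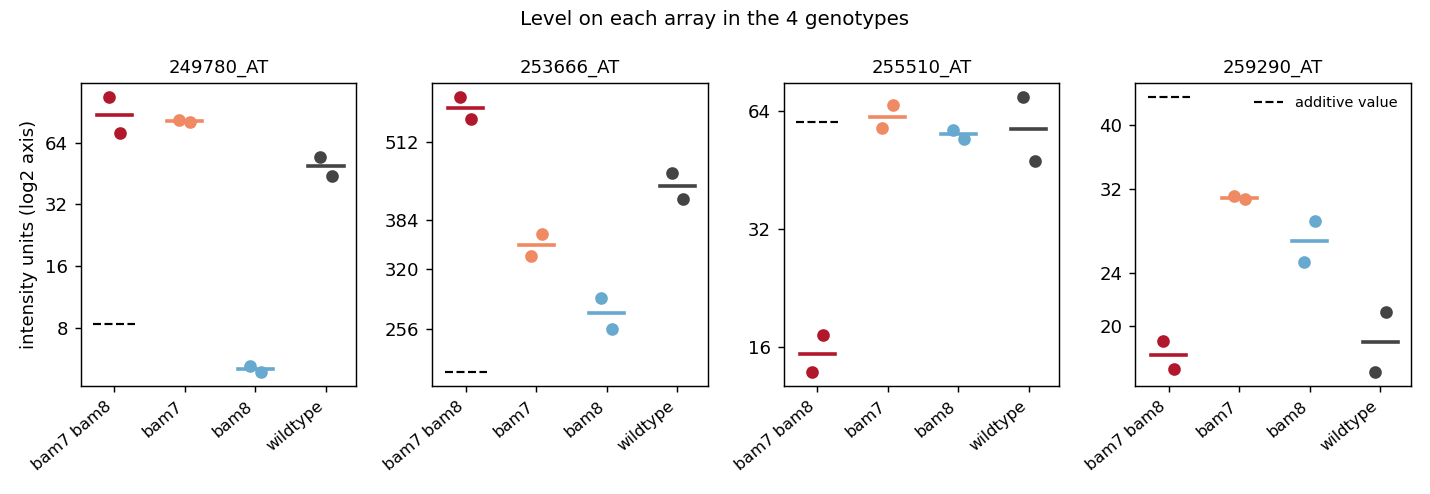
Intensity in units (vertical, log2 axis) on each of the 8 arrays for the 4 named probe sets, by genotype. Points are arrays, solid bars are geometric means of 2 arrays, and the dashed bar is the bam7 bam8 level that the sum of both single differences gives. The bam7 bam8 arrays lie above the dashed bar at 249780_AT and 253666_AT and below it at 255510_AT and 259290_AT.

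Probe set 253666_AT was lower in both single mutants than in the double mutant and wild type. It measured 605.8 and 558.6 units in bam7 bam8, 335.9 and 364.5 units in bam7, 287.8 and 256.3 units in bam8, and 456.7 and 415.5 units in wild type. The 4 genotypes did not overlap, and the double mutant was the highest. Its mean of 581.7 units stood against 218.2 units from the sum of the single differences. The interaction was 1.42 (SE 0.185, 95% interval 1.02 to 1.81, limma adjusted p 0.00409), and it was called each time an array was left out (1.33 to 1.5). Of the single comparisons, bam7 bam8 against bam8 passed (2.14-fold, adjusted p 0.000658). The difference of bam7 bam8 from bam7 was 0.73 with an adjusted p of 0.0457, and that call was lost in each of the 8 fits that leave out 1 array. Against wild type, the values were 0.42 in bam7 bam8 (adjusted p 0.297), -0.32 in bam7 (adjusted p 0.314) and -0.68 in bam8 (adjusted p 0.183), none of which passed.

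Probe set 259290_AT, at a low level, was higher in both single mutants than in the double mutant and wild type. It measured 19.0 and 17.2 units in bam7 bam8, 31.2 and 31.0 units in bam7, 24.95 and 28.7 units in bam8, and 17.05 and 21.0 units in wild type. The arrays of bam7 bam8 and wild type overlapped, and those of both single mutants lay above them without overlap. Adding the single differences gave 44.0 units for bam7 bam8, more than on any of the 8 arrays, whereas the mean there was 18.1 units. The interaction was -1.28 (SE 0.201, 95% interval -1.71 to -0.86, limma adjusted p 0.0257). For bam7 bam8 against bam7 the difference was -0.78 (adjusted p 0.0466), a call that was lost in 6 of the 8 fits that leave out 1 array. No other comparison of 259290_AT passed: bam7 against wild type was 0.72 (adjusted p 0.0879), bam8 against wild type 0.50 (adjusted p 0.448), and bam7 bam8 against wild type -0.07 (adjusted p 0.865). The interaction call held in 2 of the 8 fits that leave out 1 array, namely in the absence of bam8 replicate 1 or of wild type replicate 2. Among the other 6 fits its value was -1.18 without bam8 replicate 2 (adjusted p 0.165) and -1.13 without wild type replicate 1 (adjusted p 0.117).

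The remaining 7 members are given by their ranges. The 3 positive ones had interactions of 0.769 to 1.11 (SE 0.119 to 0.19, limma adjusted p 0.0257 to 0.0348). Their group means ranged from 115 to 591 units in bam7 bam8, from 81.4 to 435 units in bam7, from 69.7 to 364 units in bam8 and from 105 to 543 units in wild type. All 3 were lower than wild type in bam7, at -0.386 to -0.227, and in bam8, at -0.609 to -0.251, although none of these single differences passed the threshold. In bam7 bam8 all 3 rose relative to bam8, by 0.542 to 0.724, and all 3 passed (0.136% of all probe sets tested did in that comparison). Relative to bam7 they differed by 0.44 to 0.518, where 1 passed (0.0747% of all tested). The 4 other negative members had interactions of -1.19 to -0.756 (SE 0.122 to 0.199, limma adjusted p 0.0257 to 0.0335). Their means ranged from 38 to 232 units in bam7 bam8, from 52.6 to 316 units in bam7, from 49 to 342 units in bam8 and from 32.2 to 273 units in wild type. Those 4 were higher than wild type in both single mutants, by 0.209 to 0.706 in bam7, where 1 passed (0.0572% of all probe sets tested did), and by 0.322 to 0.605 in bam8, where none did. Relative to bam8, bam7 bam8 differed in these 4 by -0.629 to -0.224, where 1 passed, and relative to bam7 by -0.667 to -0.403, where none passed. In bam7 bam8 these 7 members differed from wild type by -0.235 to 0.291, and none passed.

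**Figure D3:**
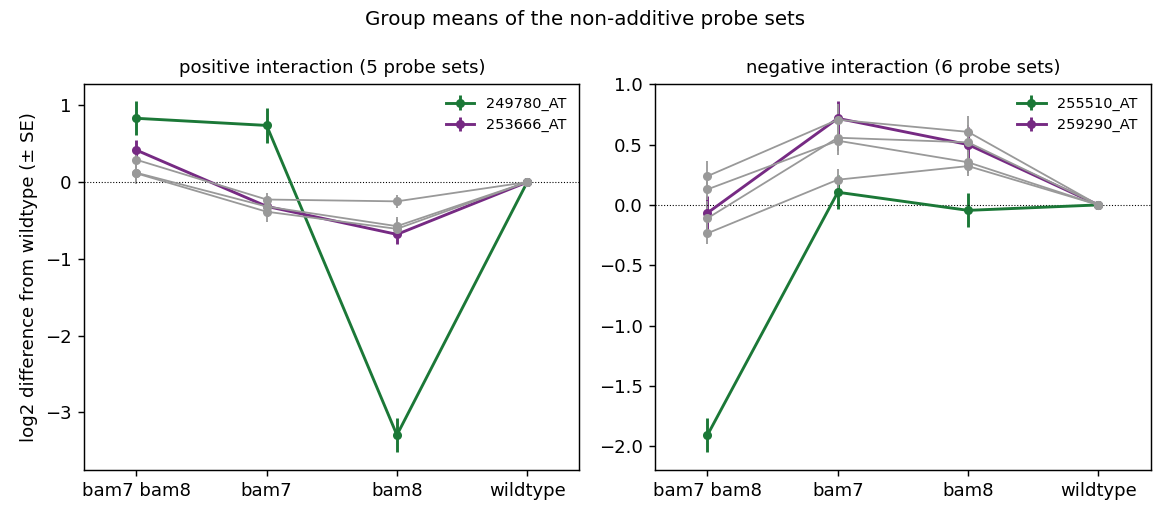
Mean log2 difference from wild type (vertical axis, bars are SE of the fit) of the 11 members in bam7 bam8, bam7, bam8 and wild type, which is 0 by definition. The 4 named probe sets are coloured and the 7 others are grey. Most lines leave the wild type level in both single mutants and return towards it in bam7 bam8, while 255510_AT departs in bam7 bam8 and 249780_AT in bam8.

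Among the 11 members, 9 thus had both single differences from wild type on 1 side and the interaction on the other, all but 249780_AT and 255510_AT. This arrangement is favoured by the contrast itself, because the wild type arrays enter both single differences, and it was present at 70.5% of all probe sets tested. This arrangement together with a double mutant nearer to wild type than either single mutant was present at 6 of the 11 members, against 23.7% of all probe sets tested. All 4 single-mutant arrays lay on 1 side of all 4 bam7 bam8 and wild type arrays at 9 members, against 3.78% of all probe sets tested. The 11 members were chosen with the same arrays, so these shares only describe them. The next 9 probe sets in order of p, which did not pass (adjusted p 0.0528 to 0.0865), had interactions of 0.797 to 1.47 in size, 5 positive and 4 negative. All 9 had both single differences on 1 side and the interaction on the other, as did 70.5% of all probe sets tested.

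Counted by single comparison, the members passed most often where bam7 bam8 was set against bam8. There 7 of 11 passed, where 0.136% of all probe sets tested did. For bam7 bam8 against bam7 the count was 4 (0.0747% of all tested), for bam7 bam8 against wild type 1 (0.18%), for bam7 against wild type 1 (0.0572%) and for bam8 against wild type 1 (0.0044%). These comparisons share arrays with the interaction that chose the members, so nothing is read from the counts. The residual SD of the members within the 14 groups was 0.0712 to 0.243. Its median of 0.133 was near the median of 0.143 over all probe sets tested. The members with the smallest interactions, 0.756 to 0.769 in size, had the lowest residual SDs, 0.0712 to 0.0771.

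The 20 overexpression arrays do not enter the interaction contrast and show where each level lay elsewhere in the series. For 255510_AT they ranged from 33.3 to 84.2 units with a median of 61.4 units, and both bam7 bam8 arrays were below all of them. The lowest overexpression group for this probe set was BAM7-DNA_Ox, at a mean log2 level of 5.11, against 3.94 in bam7 bam8. For 249780_AT the overexpression arrays fell into separate ranges by the protein in the label, whichever form of it the label named. Mean log2 levels ran from 2.30 (BAM8-DNA_Ox) to 2.73 (BAM8-N_Ox) over the BAM8 groups. Over the BAM7 groups they ran from 6.33 (BAM7_Ox) to 6.61 (BAM7-N_Ox). The 10 arrays of BAM7 lines lay between 70.8 and 101.3 units, with a median of 87.1 units, and the 10 arrays of BAM8 lines between 4.16 and 8.58 units, with a median of 5.21 units. The bam8 level was thus like that of the BAM8 lines and the bam7 bam8 level like that of the BAM7 lines. The labels used here do not say which plants were transformed, and the overexpression lines were not tested against the mutants. For 253666_AT the range was 291 to 702 units around a median of 441 units, with both bam8 arrays below it and the bam7 bam8 arrays inside it. For 259290_AT it was 16.4 to 27.2 units around 21.6 units, with both bam7 arrays and 1 bam8 array above it.

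**Figure D4:**
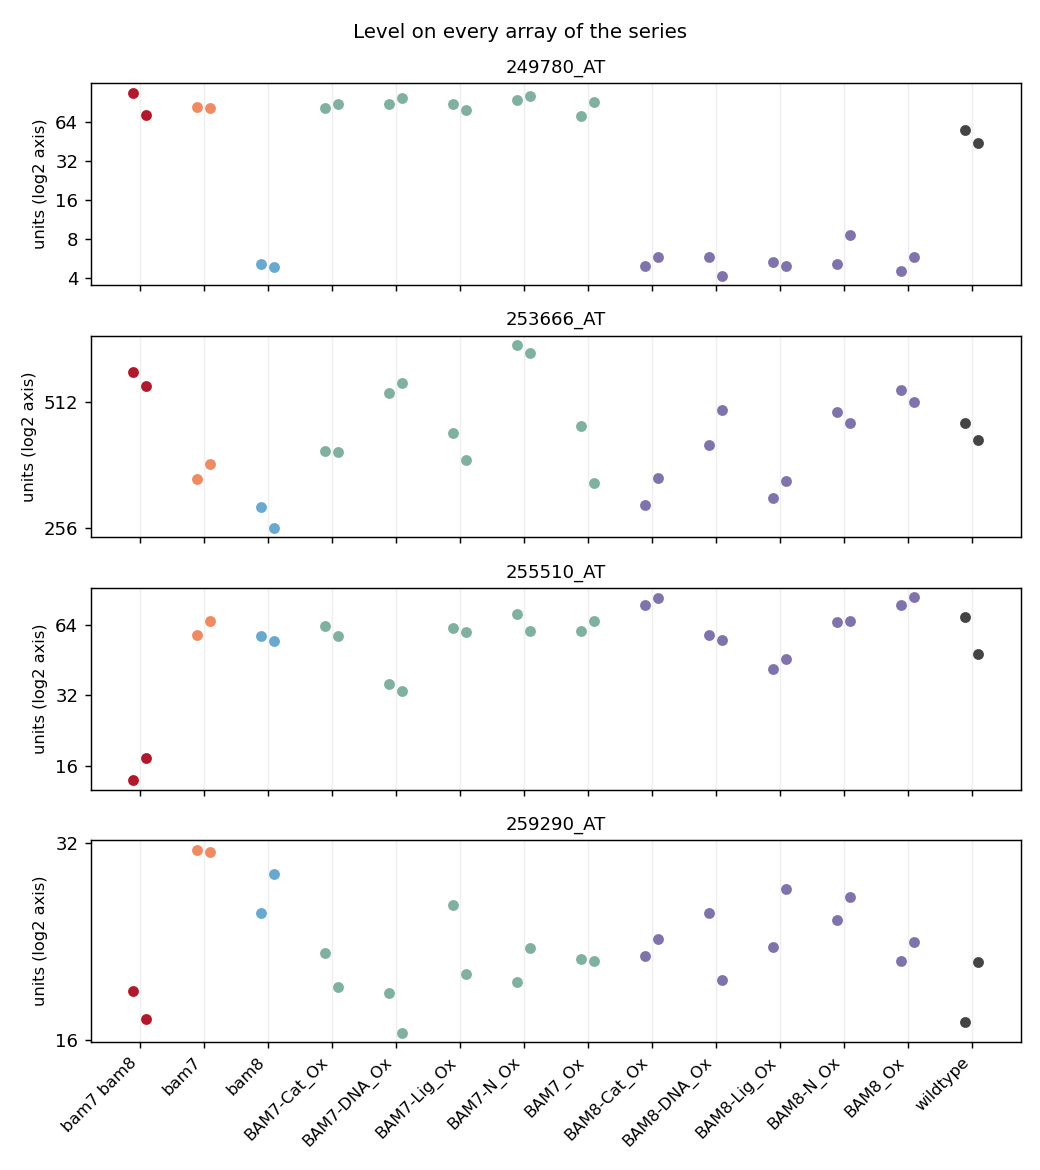
Intensity in units (vertical, log2 axes) of the 4 named probe sets on all 28 arrays, by group, with both replicates shown as points. At 249780_AT the BAM8 lines and bam8 lie at or below 8.58 units and all other arrays at or above 44.1 units, and at 255510_AT both bam7 bam8 arrays lie below every other array.

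Over all 11 members, the group mean nearest to the median of the overexpression arrays was bam7 bam8 at 1, bam7 at 3, bam8 at 1 and wild type at 6. Over all probe sets tested, the nearest was bam7 bam8 at 30.5%, bam7 at 20%, bam8 at 33.7% and wild type at 15.8%. The members were chosen with the same mutant and wild type means, so these counts only describe them. For 249780_AT the median of the overexpression arrays fell in the gap between the ranges of the BAM7 and BAM8 lines, where no overexpression array lay. Both arrays of bam7 bam8 lay outside the range of the overexpression arrays at 3 members (0.8% of all tested), those of bam7 at 3 (0.44%), those of bam8 at 1 (0.488%) and those of wild type at 2 (0.967%).

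Members differed in how far they depended on single arrays. The 3 called in each of the 8 fits that leave out 1 array were 249780_AT, 255510_AT and 253666_AT, and the other 8 were called in 1 to 4 of the 8. Every one of the 11 was called without wild type replicate 2, among 73 in all, and 4 of the 11 without wild type replicate 1, among 5 in all. All 11 kept the sign of their interaction in all 19 alternatives run. When additivity was judged on the linear intensities instead, 8 of the 11 passed, and 249780_AT (51.7 units, adjusted p 0.223) and 255510_AT (-44.0 units, adjusted p 0.104) did not. There bam8 against wild type at 249780_AT, at -44.5 units, did not pass either (adjusted p 0.265).

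**Figure D5:**
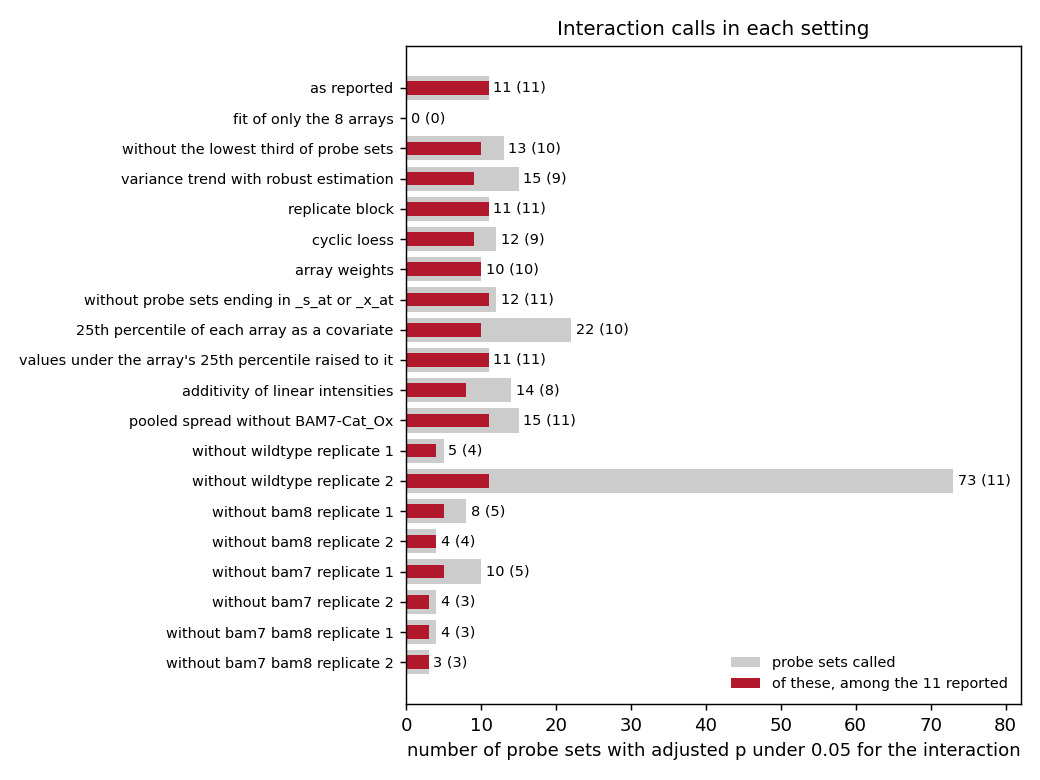
Number of probe sets called for the interaction (horizontal axis, limma adjusted p under 0.05) in each setting. Grey bars give all calls, red bars the calls among the 11 reported, and the numbers give both. The count was 0 with only the 8 arrays fitted and 73 without wild type replicate 2.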

How the data were processed

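The authors deposited a linear intensity for each probe set of each array (2.89 to 22277). RMA is the only tool named, per the submitters' processing notes, with no version. RMA gives log2 values; from the range, the table is inferred to hold their antilog. Detection calls are not used here, and the number of arrays limits the precision. From the log2 values, 1 control probe set was left out and no filter on low values was set. One mean per genotype was fitted to 28 arrays (14 groups of 2) with limma 3.58.1 in R 4.3.3, with 14 residual degrees of freedom and 17.7 in all. Tests were two-sided, with Benjamini-Hochberg adjustment over 22746 probe sets per contrast. The design, the 19 alternatives and the lists were chosen with earlier results of these data known. Names were taken in order of p, at most 2 per direction for lack of gene names; for the same reason counts over 17 gene lists could not be made. The script was tested on simulated data. Figures used matplotlib 3.10.9 in Python 3.11.15.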

Additional observations from a re-analysis of the deposited data

Results flagged for a closer look

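The differences bam7 minus wild type and bam7 bam8 minus bam8 were unequal by the interaction test itself at 11 probe sets. With only the 8 arrays fitted, 0 were called. The named ones were 249780_AT (3.39), 253666_AT (1.42), 255510_AT (-1.97) and 259290_AT (-1.28). At 249780_AT the BAM8 overexpression lines (4.16 to 8.58 units) were low like bam8 (5.17 and 4.85 units), and the cause was not tested. With 2 arrays per group, outlying arrays within a group could not be tested for.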

How the results depend on the processing

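The count of 11 (5 positive, 6 negative) stayed within 1.5 times in 11 of the 19 alternatives. In the fit of only the 8 arrays, with fewer residual degrees of freedom, limma called 0 (0 positive, 0 negative), and 1822 probe sets had an unadjusted p under 0.05. That fit has the same group means, and its adjusted p was 0.0504 for 249780_AT, 0.214 for 253666_AT and 0.321 for both 255510_AT and 259290_AT. With a covariate for the low end of the arrays (their 25th percentiles) the count was 22 (13 positive, 9 negative). The positive count was 10 with a variance trend and robust estimation, and 8 with cyclic loess, with linear intensities and, an alternative chosen after seeing the data, with the spread pooled without BAM7-Cat_Ox. Leaving out 1 array gave 3 (without bam7 bam8 replicate 2) to 73 calls (without wild type replicate 2), with 2 to 40 positive and 1 to 33 negative, and 4 or 5 calls without bam7 bam8 replicate 1, bam7 replicate 2, bam8 replicate 2 or wild type replicate 1. The cause of these shifts was not tested. Single comparisons were repeated for the 4 named probe sets, and the 8 that had passed kept their sign. Over the alternatives 30 passes were lost and 4 gained. With only the 8 arrays, bam7 bam8 minus bam8 was lost at 253666_AT and 255510_AT (adjusted p 0.0716 each). Most others were bam7 bam8 minus bam7 at 253666_AT and 259290_AT (adjusted p 0.0553 and 0.0638 with the covariate). Without wild type replicate 2, bam8 minus wild type at 253666_AT (-0.75, adjusted p 0.0451) and bam7 minus wild type at 259290_AT (0.87, adjusted p 0.0157) also passed, as did bam7 bam8 minus bam8 at 259290_AT with array weights (-0.57, adjusted p 0.0206). Some near 0 changed sign: bam8 minus wild type at 255510_AT was 0.0348 with the covariate and -0.31 to 0.22 without single arrays, bam7 minus wild type at 255510_AT was -0.16 to 0.37, bam7 bam8 minus bam7 at 249780_AT was -0.20 to 0.38, and bam7 bam8 minus wild type at 259290_AT was -0.22 to 0.084. The replicate block gave the same 11 members. The replicate numbers were not taken to pair the arrays. The replicate differences of the 4 genotypes correlated across probe sets between -0.203 and 0.113, and those of all 14 groups between -0.381 and 0.434. Levels near the low end of an array, such as 249780_AT in bam8, limit the sizes that can be read.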
